A study of Mus musculus with 78 samples.

Results

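The regions described here are CTCF peaks that lie at promoters and do not touch a ZFP143 peak in mouse embryonic stem cells (mESCs). A CTCF peak was kept when it shared no base with any ZFP143 peak and when its centre lay within 1000 bp of a transcript start of a protein-coding gene. Of 22314 CTCF peaks, 2985 (13.4%) met this rule, and they stood at the promoters of 2804 of 21951 annotated protein-coding genes (12.8%). The 2804 genes were then followed through the TT-seq, RNA-seq and retinoic acid (RA) count tables after loss of ZFP143. Because a ZFP143 peak can lie at the same or another start of a gene without touching the CTCF peak, the genes were split further. A total of 2552 had no ZFP143 peak centre within 2000 bp of any of their starts and are called CTCF-alone genes, while 252 had one and are called genes with separate CTCF and ZFP143 peaks. Any annotated start of a gene counts: for 1039 genes (37.1%) the start next to the CTCF peak lay over 1000 bp from the 5′-most start of the gene. Among the 252 genes with separate peaks this held for 144 (57.1%). In 140 of the 252 the nearest such ZFP143 peak lay over 2000 bp from the CTCF peak, so the 2 peaks need not share a promoter.

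All samples came from the E14TG2a mESC line with the genotype ZFP143-FKBP, in which both copies of Zfp143 carry a degradation tag (FKBP) followed by an HA tag and GFP, and the study used picked homozygous clones grown in serum-free medium with LIF and inhibitors of MEK and GSK3-β. Control cells received DMSO and depleted cells received 500 nM dTAG-V1, a compound that sends the tagged protein to the proteasome. TT-seq, which captures RNA made during a short pulse of 4-thiouridine, had a DMSO group and groups treated for 2, 6 and 24 h, and RNA-seq had a DMSO group and groups treated for 24, 48 and 72 h. The RA table held DMSO and dTAG-V1 cells after 24 h of treatment and the same kinds of cells after a further 24 h in differentiation medium with RA, 48 h of treatment in all. Every group of these tables had 2 libraries, labelled replicate 1 and 2. The peak lists come from ChIP-seq with 1 library per group (CTCF in DMSO and after 6 h of dTAG-V1, ZFP143 in DMSO), so the peaks and the classes built on them have no replicate check. The study's methods call the TT-seq and RNA-seq replicates biological, without saying whether they were separate cultures or clones, and the p-values measure the spread between these libraries.

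CTCF is a zinc-finger DNA-binding protein that stops the cohesin complex as it extrudes chromatin loops, and at promoters it is known both as a boundary factor and as a regulator of single genes. ZFP143 is a zinc-finger activator that binds close to transcription starts, in particular of housekeeping genes. Earlier studies had described both proteins as partners in looping. The study that made these data detected no general change of looping after ZFP143 loss and proposes that such cooperation is highly unlikely. It traces the reported shared sites to an antibody that also recognizes CTCF. The promoters described here show what happens to transcription where a CTCF peak stands without an overlapping ZFP143 peak.

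The sequences below, from the GRCm38 (mm10) genome, show the CTCF core in the promoter peak of 6 CTCF-alone genes that are followed further on, with the core in capitals and the flanking bases in lower case. They are written 5′ to 3′ on the strand that carries the core.
Sox13, chr1:133385659-133385711, plus strand, in an intron, 159 bp upstream of an internal start: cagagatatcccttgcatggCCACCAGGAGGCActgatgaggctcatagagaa
Calcoco2, chr11:96111122-96111174, minus strand, in an intron 814 bp downstream of the start: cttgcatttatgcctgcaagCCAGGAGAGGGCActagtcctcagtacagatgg
Crip1, chr12:113146237-113146289, plus strand, outside genes and 53 bp upstream of the start: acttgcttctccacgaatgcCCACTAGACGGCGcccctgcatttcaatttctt
Klhl5, chr5:65157024-65157076, plus strand, in an intron 980 bp downstream of an internal start: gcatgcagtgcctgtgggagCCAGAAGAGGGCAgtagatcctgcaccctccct
Rplp0, chr5:115559270-115559322, plus strand, outside genes and 171 bp upstream of the start: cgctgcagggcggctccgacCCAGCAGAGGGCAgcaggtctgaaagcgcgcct
Slc35b2, chr17:45563710-45563762, plus strand, outside genes and 138 bp upstream of the start: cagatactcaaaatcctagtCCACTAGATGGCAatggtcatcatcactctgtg
The cores of Rplp0 and Slc35b2 equalled the consensus in every letter, and the other 4 differed from it by 1 letter. The start near the core is an internal one in Sox13, 38851 bp from the 5′-most start, and in Klhl5, 48531 bp from it.

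The core consensus has 13 letters, and a match with at most 1 mismatch on either strand was counted. Within 300 bp windows on the peak centres, 49.5% of the 2985 peaks held such a match (1477 peaks), against 67.1% of the CTCF peaks farther than 1000 bp from a start and 2.76% of windows of the same length at all 93472 protein-coding starts. The median distance from the core to the peak centre was 20 bp. A ZFP143 site, CTACAANTC or CCCAGNATG on either strand (the patterns can share 1 base), was found in 2.24% of the peaks. The share was 2.54% in CTCF peaks farther than 1000 bp from a start, 2.58% in all CTCF peaks and 3.35% at all starts. It was 14.4% in CTCF peaks that overlap ZFP143, which the rule leaves out here, and 27.6% in ZFP143 peaks without CTCF. These shares are descriptions of the letters in the windows, and a window without a match says nothing about binding.

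The rule sets the distance of these peaks from a start, which is given as a description. The median distance from centre to start was 252 bp, 910 peaks (30.5%) lay within 100 bp, and 1859 lay upstream against 1118 downstream (37.5%), with 8 at the start itself. The centres fell in introns in 1169 cases, outside genes in 843, in untranslated regions in 423 and in other exons in 550. The core became commoner away from the start: it was found in 41.7% of peaks within 100 bp, in 47.4% of those from 100 to 500 bp and in 60.1% of those from 500 to 1000 bp, while the median GC content of the windows fell from 62.7% through 57.7% to 52.3%. Whether base composition sets the share with a core was not tested. The core lay on the strand of the nearest gene in 54.5% of the peaks that had one. Within 100 bp of the distance limit, 182 peaks lay inside and 141 outside.

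**Figure D1:**
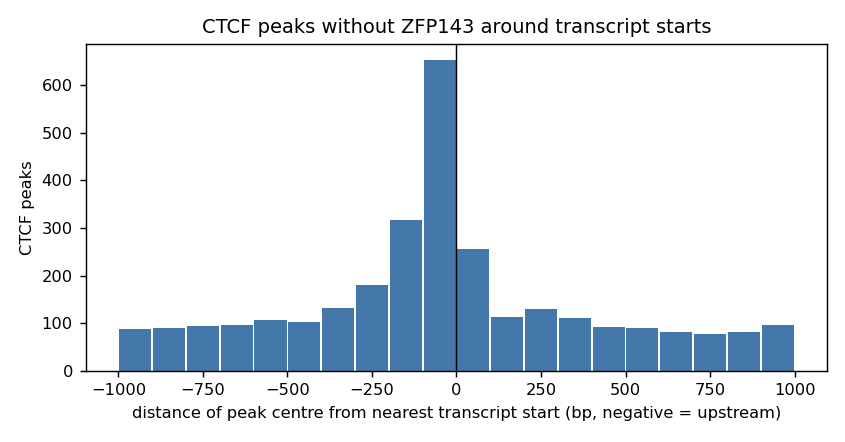
Number of CTCF peaks without ZFP143 (y axis) by distance of the peak centre from the nearest transcript start (x axis, bp in bins of 100 bp, negative values upstream). The tallest bar, with 654 peaks, is the one from 100 bp upstream to the start, against 256 in the bin just downstream.

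CTCF and ZFP143 peaks rarely touched. Only 222 CTCF peaks (0.995%) overlapped a ZFP143 peak by at least 1 bp, which was 6.93% of the 3189 ZFP143 peaks, and 64.9% of these shared peaks lay within 1000 bp of a start against 13.5% of the CTCF peaks without ZFP143. The ZFP143 peak nearest to one of the 2985 peaks lay at a median of 100362 bp, never closer than 286 bp between centres, and within 2000 bp for 110 peaks (3.69%). The CTCF peak list pools DMSO and dTAG-V1 cells, so it gives positions and not a change of CTCF occupancy with treatment.

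Promoters with both proteins in separate peaks are shown by 3 genes, chosen after their values were seen, that were lower after 2 h of depletion. The CTCF core or the ZFP143 site is in capitals.
Thtpa CTCF core, chr14:55094139-55094167, plus strand, 631 bp upstream of the start: ggaggatgCCAGAAGAGGGCGtaagaacc
Thtpa ZFP143 site, chr14:55094771-55094795, plus strand, 1 bp upstream of the start: gcaccaggCCCAGGATGccaggctc
Htra2 CTCF core, chr6:83055296-83055324, minus strand, 37 bp upstream of the start: ctggggagCCACCCGGTGGCGctctcggc
Htra2 ZFP143 site, chr6:83054626-83054650, minus strand: ctagcgttCCCAGCATGcctcgcgg
Vti1b CTCF core, chr12:79172109-79172137, plus strand, in an intron 325 bp downstream of the start: gcccgacaGCAGCAGGGGGCGtgcccaaa
Vti1b ZFP143 site, chr12:79172710-79172734, minus strand, 55 bp upstream of the start: tcacttaaCTACAATTCccagtatg
The core and the site were 630 bp apart at Thtpa, 672 bp at Htra2 and 599 bp at Vti1b, and the authors' fold of the ZFP143 peak over input was 50.4, 153 and 71.3. At Vti1b the distance of the core is to an internal start, 219 bp from the 5′-most start, while that of the ZFP143 site is to the 5′-most start. Htra2 shares its CTCF peak with the neighbouring gene Aup1.

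The count tables had totals of 9721568 to 16532077 reads in genes per TT-seq library, 10261851 to 15316700 per RNA-seq library and 13890761 to 27089033 per RA library, and no pair of libraries was identical. The biological coefficient of variation was 17.2% in TT-seq, 3.65% in RNA-seq and 5.92% in the RA table, so small changes are less certain in TT-seq. Markers of embryonic stem cells, all 10 of which were detected, summed to 3611 to 3858 counts per 1000000 reads in genes after TMM scaling (CPM) in the DMSO libraries of TT-seq and 7087 to 7295 in those of RNA-seq, so the cells carried their label. In RNA-seq the sum was 5941 to 6049 at 24 h, 4788 to 4851 at 48 h and 4520 to 4582 at 72 h, and in the RA table it was 7533 to 7666 before and 1376 to 1963 after RA in DMSO cells. Primitive endoderm markers summed to 6.43 to 7.63 CPM in DMSO and 18.9 to 19.2 CPM at 72 h in RNA-seq. Neural markers summed to 218 to 226 CPM in DMSO, 97.2 to 104 CPM at 48 h and 135.5 to 143 CPM at 72 h, trophoblast markers to 29.5 to 30.03, 26.6 to 28.9 and 39.3 to 40.04 CPM, and 2-cell-like markers to 0.998 to 1.38, 2.14 to 2.72 and 2.39 to 3.05 CPM. In bulk samples fewer cells of a type and less RNA per cell cannot be told apart, and shifts were present at 24 h too: neural markers summed to 130.2 to 132 CPM, trophoblast markers to 20.7 to 22.6 CPM and primitive endoderm markers to 10.9 to 12.1 CPM in RNA-seq, and in TT-seq primitive endoderm markers went from 11.6 to 13.9 CPM in DMSO to 23.7 to 25.45 CPM and neural markers from 63.3 to 67.5 CPM to 33.55 to 50.45 CPM. In RNA-seq at 24 h, 2-cell-like markers summed to 2.42 to 2.55 CPM, and mesoderm markers to 3.56 to 4.28 CPM against 1.38 to 2.07 CPM in DMSO. Fibroblast markers summed to 4.96 to 5.52 CPM at 48 h against 2.48 to 2.78 CPM in DMSO. The part of these shifts in the results at 24, 48 and 72 h was not tested. Zfp143 RNA does not report the loss of the tagged protein: its TT-seq level was 71.3 and 74.5 CPM in DMSO and 162 and 165 CPM at 2 h (log2 change 1.17, adjusted p = 0.00104, edgeR). Zfp143 is no member of the set.

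Genes with these CTCF peaks were mostly active. After the filter on low counts (genes were kept where 4 or more of a table's 8 libraries exceeded 10 counts), 2395 of the 2804 genes (85.4%) were tested in TT-seq, 2204 (78.6%) in RNA-seq and 2395 in the RA table, against 62.2%, 56.7% and 62.9% of all protein-coding genes, and 260 were tested in none. In RNA-seq of DMSO cells, their median level per kb of exon was 4.04 and 3.89 CPM in the 2 libraries. CTCF-alone genes sat at 3.48 and 3.44 CPM per kb and genes with separate ZFP143 peaks at 10.2 and 9.99, while genes with neither peak sat at 0.147 and 0.139. The highest levels per kb belonged to Rps15, a ribosomal protein gene, Hsp90aa1, which encodes a heat shock chaperone, Actb (β-actin), Tubb5 (a tubulin) and Atp5b (a subunit of ATP synthase), of which Tubb5 has a separate ZFP143 peak.

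The TT-seq time course asked how new transcription at these genes responded as ZFP143 was lost. At 2 h, few CTCF-alone genes were called: 1 of 2147 tested genes was lower (0.0466%) and none was higher, with a median log2 change of 0.03. In contrast, of the 248 tested genes that also had a separate ZFP143 peak, 33 were lower (13.3%) and 2 higher, with a median of −0.16. Both classes together gave 34 of 2395 genes lower (1.42%) and 2 higher (0.0835%), and over all 17870 tested genes 2.43% were lower and 0.168% higher. Here a gene is called lower or higher when its Benjamini-Hochberg adjusted p is under 0.05 in edgeR's quasi-likelihood test and its log2 change exceeds 0.5 in size. A gene that was not called is not shown to be unchanged: at an unadjusted p under 0.05, 114 of the 2147 CTCF-alone genes passed. Genes with a ZFP143 peak and no CTCF peak were lower in 18.0% of cases, and genes with neither in 0.203%. The differences between classes were not tested.

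In TT-seq the libraries with the same replicate number deviated from their group means together, and a fit with the replicate number as a block called more genes. At 2 h it called 58 of the 2395 genes lower (2.42%) and 8 higher, of which 5 lower and 5 higher were CTCF-alone genes and 53 lower (21.4% of 248) and 3 higher had a separate ZFP143 peak. DESeq2 called 0 CTCF-alone genes lower and 3 higher at 2 h, and 37 genes with separate peaks lower. Without the count filter, 14 of 2524 CTCF-alone genes were lower (0.555%) and 11 higher (0.436%), against 46 and 5 of 252 genes with separate peaks. Leaving out 1 library reduced the calls at 2 h to 18 lower and 3 higher without DMSO replicate 1, 11 and 0 without DMSO replicate 2, 6 and 0 without the first treated library, and 5 and 0 without the second. None of these fits called a CTCF-alone gene lower, and the genes with separate peaks gave 5 to 18.

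**Figure D2:**
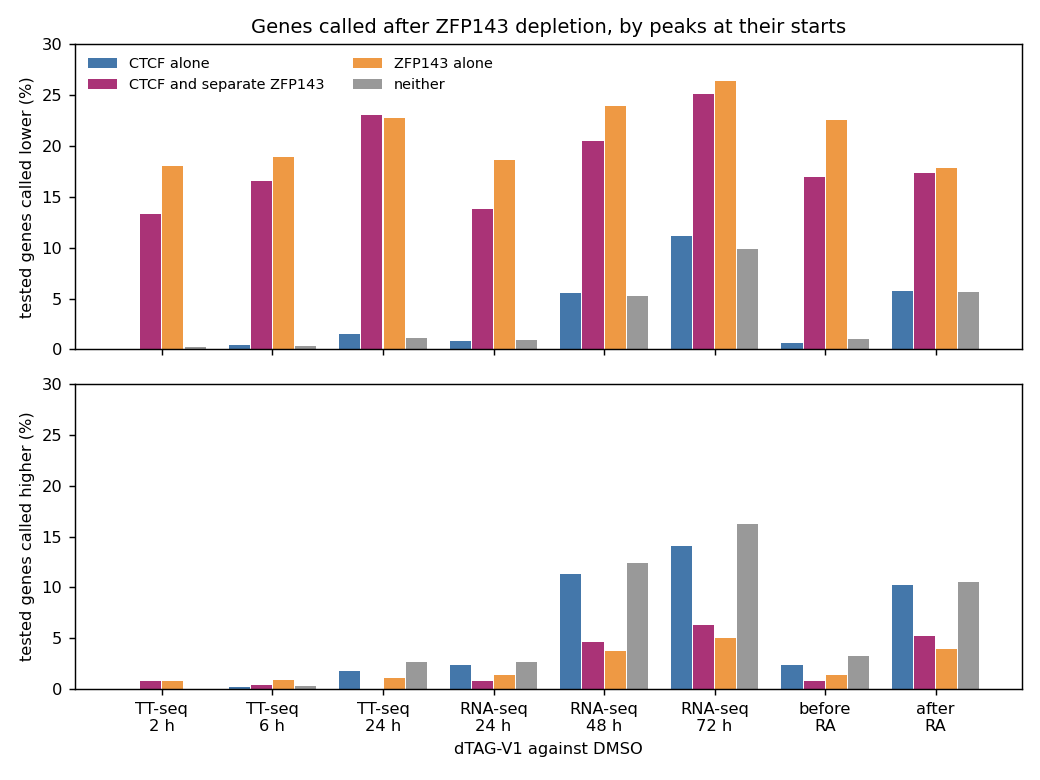
Share of tested genes called lower (upper panel) and higher (lower panel) in each contrast of dTAG-V1 with DMSO, in percent, for 4 classes of genes by the peaks at their starts. CTCF-alone bars stand at 0.0466% lower at TT-seq 2 h and 11.1% at RNA-seq 72 h, while the bars of genes with separate CTCF and ZFP143 peaks stand at 13.3% and 25.1%. TT-seq differs from the other contrasts in assay and in the rule for a call, so heights are not directly comparable between them.

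The 1 CTCF-alone gene called lower at 2 h was Dhx58, a cytoplasmic RNA sensor of the antiviral response, named here because the count was so small. Its CPM was 5.07 and 5.64 in DMSO and 1.99 in both treated libraries, a log2 change of −1.43 (SE 0.30, adjusted p = 0.0494, edgeR). The groups did not overlap. The call was lost without any 1 of the 4 libraries (log2 −1.50 to −1.33), with DESeq2 and with DESeq2's size factors, and in RNA-seq Dhx58 passed no test.

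Examples of the genes with separate peaks lower at 2 h were taken from those with a mean count of at least 100. Their groups also had to be apart. Of those with the greatest change, 2 are given. Dnajc18, a gene for a co-chaperone of the DNAJ family, had 33.8 and 35.1 CPM in DMSO and 7.57 and 7.83 CPM at 2 h (log2 −2.16, SE 0.21, adjusted p = 0.00122). Fbxo46, an F-box gene, went from 44.0 and 52.4 to 8.77 and 9.70 CPM (log2 −2.38, SE 0.21, adjusted p = 0.000859). In both genes the libraries of the groups were far apart, and the calls held without any 1 library. The 2 genes called higher at 2 h were Espl1, which encodes separase (log2 0.85, adjusted p = 0.00969), and Gpr108 (log2 0.88, adjusted p = 0.0409). The Espl1 call was lost without 3 of the 4 libraries in turn, DMSO replicate 2 and either treated library (log2 0.76 to 0.95), and the Gpr108 call without any of the 4 (log2 0.80 to 0.98).

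The promoters whose sequences are printed above behaved as follows. Thtpa, a thiamine triphosphatase gene, had 11.6 and 12.6 CPM in DMSO and 1.91 and 2.59 CPM at 2 h (log2 −2.41, adjusted p = 0.0092). Aup1 had 15.7 and 15.9 against 5.90 and 5.0 CPM (log2 −1.54, adjusted p = 0.00571), and Htra2, a mitochondrial protease gene on the other side of the same CTCF peak, had 6.10 and 7.01 against 2.87 and 2.11 CPM (log2 −1.41, adjusted p = 0.0467). Vti1b, which encodes a SNARE protein of vesicle fusion, had 19.8 and 30.6 against 9.72 and 11.5 CPM (log2 −1.25, adjusted p = 0.0243). The groups were apart for each of these genes, but the calls are fragile. With 1 library left out, Htra2 lost its call without any of the 4 (log2 −1.63 to −1.18), Thtpa (−2.64 to −2.22) and Vti1b (−1.53 to −0.88) lost theirs without DMSO replicate 2 or either treated library, and Aup1 lost its own without either treated library (−1.66 to −1.41). In RNA-seq at 24 h, Htra2 went from 32.3 and 31.6 to 6.70 and 7.30 CPM (log2 −2.19, adjusted p = 1.06e-12) and Aup1 from 69.4 and 60.5 to 19.1 and 21.6 CPM (log2 −1.67, adjusted p = 3.76e-11).

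At 6 h, 9 CTCF-alone genes were lower and 5 higher of 2147 (0.419% and 0.233%), against 41 and 1 of 248 genes with separate peaks. Together that made 50 lower (2.09%) and 6 higher (0.251%), where 2.83% and 0.397% of all tested genes were called. For CTCF-alone genes DESeq2 gave 16 lower and 15 higher, and a fit without the count filter 39 lower and 30 higher of 2524. With the replicate block the counts were 103 lower (4.30%) and 36 higher (1.50%), of which 35 and 33 were CTCF-alone genes. With 1 library left out they were 27 lower and 2 higher without DMSO replicate 1, 19 lower without DMSO replicate 2, 12 and 1 without the first and 11 and 0 without the second treated library, with 0 to 2 CTCF-alone genes lower.

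Of the CTCF-alone genes lower at 6 h, 3 are described here. Rplp0, a protein of the ribosomal stalk, had 195 and 187 CPM in DMSO and 103 and 125 CPM at 6 h (log2 −0.75, adjusted p = 0.045). Rcor2, a corepressor gene, had 42.0 and 44.8 against 27.0 and 21.9 CPM (log2 −0.83, adjusted p = 0.0271), and Slc35b2, a transporter gene of the Golgi, had 31.7 and 30.7 against 20.2 and 17.4 CPM (log2 −0.73, adjusted p = 0.0397). On the other side, Elmo1, whose product helps to activate Rac, had 157 and 132 against 242 and 287 CPM (log2 0.87, adjusted p = 0.025). The groups did not overlap for any of them, but each of the 4 calls was lost without any 1 library (Rplp0 −0.89 to −0.61, Rcor2 −0.99 to −0.69, Slc35b2 −0.84 to −0.63, Elmo1 0.75 to 0.99 on the log2 scale). That the groups did not overlap was a condition for naming these 4 genes. Rplp0 and Slc35b2 passed no test in RNA-seq.

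At 24 h of TT-seq, CTCF-alone genes were called in both directions, though the counts depend on single libraries: 32 were lower (1.49%) and 39 higher (1.82%) of 2147, while 57 genes with separate peaks were lower (23.0%) and 0 higher of 248 (1 higher with DESeq2, 2 with the replicate block). Together, 89 were lower (3.72%) and 39 higher (1.63%), where 4.09% and 2.02% of all tested genes were called. With the replicate block there were 162 lower (6.76%) and 130 higher (5.43%). With 1 library left out there were 32 lower and 7 higher without DMSO replicate 1, 57 and 19 without DMSO replicate 2, 32 and 23 without the first treated library, and 34 and 13 without the second. Scaling to library size alone gave 61 lower and 50 higher. The CTCF-alone genes among these numbered 82 lower and 128 higher with the block, 16 and 49 with library size alone, 5 and 6 without DMSO replicate 1, 24 and 18 without DMSO replicate 2, 2 and 23 without the first treated library, and 5 and 13 without the second. Of the 2147 CTCF-alone genes none was called lower at all 3 times in TT-seq, whereas 29 of the 248 genes with separate peaks were. The 3 contrasts share their DMSO libraries, and the count over all tested genes was not taken.

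Sox13, a transcription factor gene of the Sox family, was a CTCF-alone gene called lower in TT-seq at 6 and 24 h and in RNA-seq at 24, 48 and 72 h. In TT-seq it had 76.2 and 65.8 CPM in DMSO, 45.7 and 42.5 at 6 h and 28.8 and 28.0 at 24 h (log2 −1.32, SE 0.15, adjusted p = 0.00212 at 24 h). The call at 6 h (log2 −0.69, adjusted p = 0.044) was lost without any 1 library (log2 −0.78 to −0.59), and that at 24 h was kept in every such fit. In RNA-seq it had 84.9 and 84.0 CPM in DMSO, 39.3 and 42.5 CPM at 24 h, 16.7 and 16.2 CPM at 48 h, and 5.83 and 5.05 CPM at 72 h (log2 −3.97, SE 0.10, adjusted p = 6.78e-22 at 72 h). No treated library overlapped a DMSO library at these times. Naming the gene required this for TT-seq at 24 h and for RNA-seq at 48 and 72 h. In the RA table Sox13 was lower by nearly the same amount before RA (60.8 and 62.8 against 30.8 and 31.5 CPM, log2 −0.99) and after it (61.5 and 67.9 against 32.3 and 33.9 CPM, log2 −0.96), and its call after RA was lost when libraries were scaled to size alone.

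Tk1, the thymidine kinase of dividing cells, had 93.5 and 76.0 CPM in TT-seq of DMSO cells and 36.5 and 40.2 CPM at 24 h (log2 −1.14, SE 0.15, adjusted p = 0.0034). Its RNA-seq values fell from 84.8 and 85.0 to 12.2 and 13.9 CPM at 72 h (log2 −2.69, adjusted p = 2.52e-19), but at 24 h its log2 change of −0.75 did not pass the test (adjusted p = 0.0348).

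Of the CTCF-alone genes higher in TT-seq at 24 h, App, which encodes the amyloid precursor protein, had 14.6 and 16.3 CPM in DMSO and 44.7 and 40.7 CPM at 24 h (log2 1.46, SE 0.28, adjusted p = 0.0197). Klhl5, a gene of the kelch family, had 7.14 and 6.93 against 21.4 and 17.8 CPM (log2 1.47, adjusted p = 0.0135). Igfbp7, which encodes a secreted binding protein, had 5.48 and 4.42 against 30.8 and 19.8 CPM (log2 2.36, adjusted p = 0.00614), and Cebpb, a bZIP transcription factor gene, had 0.621 and 0.686 against 4.23 and 4.48 CPM (log2 2.71, adjusted p = 0.00342). Each had its treated libraries above both DMSO libraries, which was a condition for naming Klhl5 and Igfbp7 at this time. The App call was lost without any 1 library (log2 1.38 to 1.56), the Klhl5 call without either DMSO library or the first treated one (1.34 to 1.61) and the Igfbp7 call without DMSO replicate 2 (2.01 to 2.65), while Cebpb kept its call. All 4 were called higher in RNA-seq at 24, 48 and 72 h. At 72 h App reached 110 and 107 CPM from 7.90 and 10.1 (log2 3.57, adjusted p = 6.78e-22) and Klhl5 36.7 and 34.0 CPM from 4.96 and 5.63 (log2 2.72).

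**Figure D3:**
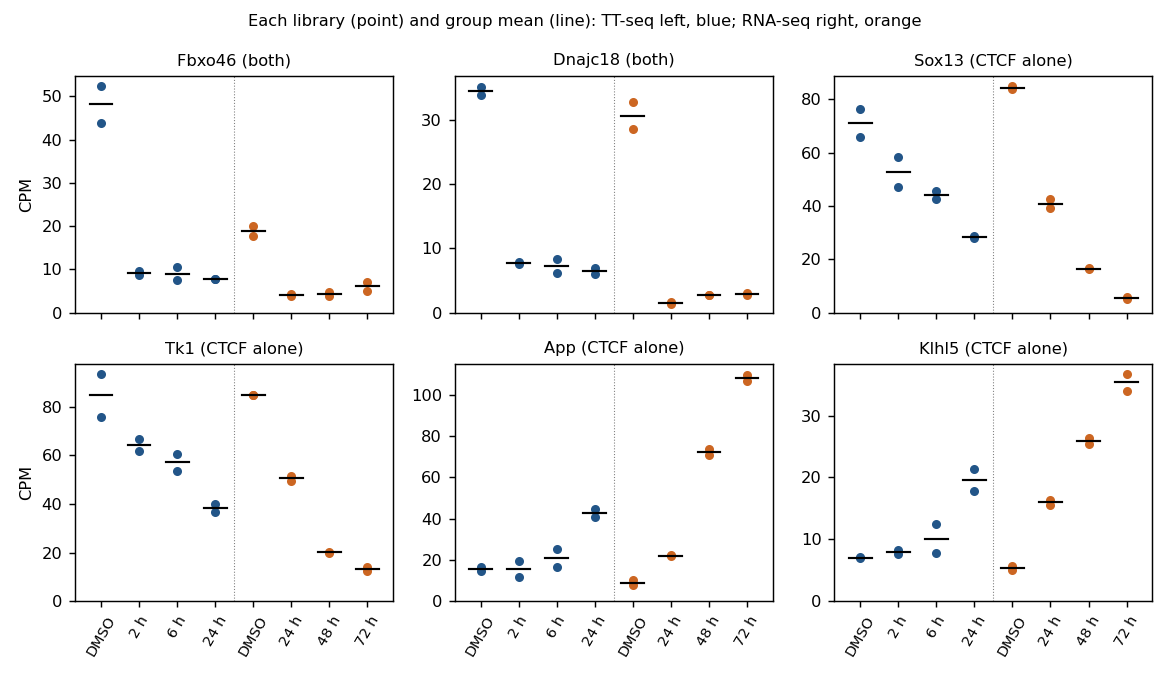
CPM (y axis, each panel starting at 0) of 6 genes in every TT-seq library (blue points, DMSO and 2, 6 and 24 h) and RNA-seq library (orange points, DMSO and 24, 48 and 72 h), with the mean of each group of 2 as a line. Fbxo46 and Dnajc18, which have a separate ZFP143 peak, are low from 2 h, while Sox13 and Tk1 (CTCF alone) descend and App and Klhl5 (CTCF alone) climb over the later times.

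The share of genes called lower differed by how far the nearest ZFP143 peak lay from the start. At 2 h of TT-seq, 32 of 202 genes with a ZFP143 peak centre up to 500 bp from a start were lower (15.8%), 1 of 46 from 500 to 2000 bp (2.17%), 1 of 181 from 2000 to 10000 bp (0.552%), 0 of 575 from 10000 to 50000 bp and 0 of 1391 beyond. At 24 h the shares were 27.2%, 4.35%, 3.87%, 1.74% and 1.08% in the same order. In RNA-seq at 24 h they were 16.1%, 4.26%, 1.15%, 0.952% and 0.790%. Among genes with separate peaks, where the ZFP143 peak lay within 2000 bp of the CTCF peak itself, 13 of 110 genes were lower at 2 h (11.8%). Where it lay farther from the CTCF peak, though within 2000 bp of some start of the gene, 20 of 138 were (14.5%). In RNA-seq at 72 h the order was the other way, with 32.7% against 19.3%, as it was before RA (20.5% against 13.9%) and after it (24.1% against 11.7%). By the position of the CTCF peak, 6 of 802 genes with that peak within 100 bp of the start were lower at 2 h, 2 of 518 at 100 to 250 bp, 10 of 470 at 250 to 500 bp and 16 of 605 at 500 to 1000 bp. These bins hold both classes. Of the 34 genes lower at 2 h, 33 had a separate ZFP143 peak, so position and class cannot be told apart here. None of these differences between bins was tested.

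**Figure D4:**
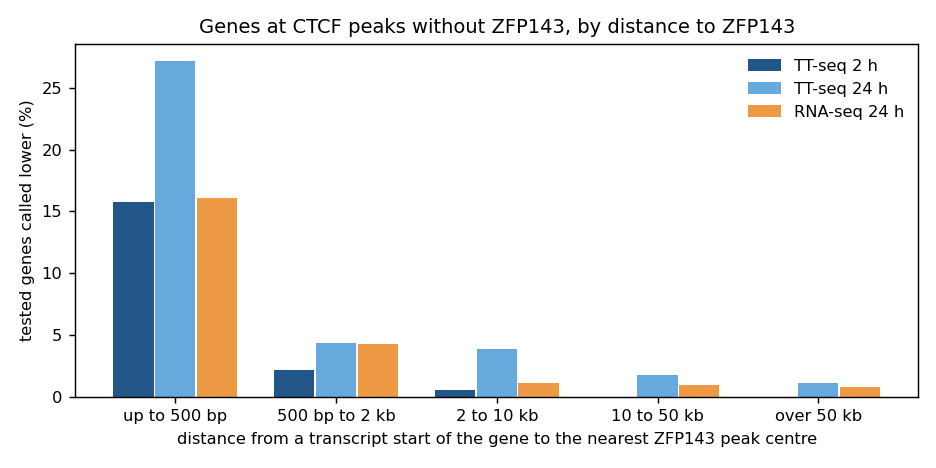
Share of tested genes called lower (y axis, percent) by the distance from the gene's start to the nearest ZFP143 peak centre (x axis, 5 bins) for TT-seq at 2 h and 24 h and RNA-seq at 24 h, over genes with a CTCF peak that does not touch ZFP143. The bars up to 500 bp stand at 15.8%, 27.2% and 16.1%, and the highest bar of any other bin is 4.35%.

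RNA-seq measured the RNA pool, and its calls required an adjusted p under 0.01 for a change beyond 1.5-fold (edgeR's glmTreat). At 24 h, 17 CTCF-alone genes were lower (0.865%) and 46 higher (2.34%) of 1965 tested, against 33 lower (13.8%) and 2 higher of 239 genes with separate peaks. Both classes together gave 50 lower (2.27%) and 48 higher (2.18%), where 3.41% and 2.32% of all tested genes were called. The count of higher genes was 28 without DMSO replicate 2 and 31 without the second treated library. Genes with neither peak had 0.972% lower and 2.71% higher. For CTCF-alone genes DESeq2 gave 8 lower and 15 higher, and leaving out 1 library gave 11 (without the first treated library) to 13 lower and 27 (without DMSO replicate 2) to 38 higher, with 30 without either treated library.

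At 48 h the counts among the 2204 genes were 158 lower (7.17%) and 234 higher (10.6%), beside 7.71% and 10.5% of all genes, and at 72 h they were 279 lower (12.7%) and 293 higher (13.3%), beside 12% and 13.7%. CTCF-alone genes rose from 109 lower (5.55%) and 223 higher (11.3%) at 48 h to 219 lower (11.1%) and 278 higher (14.1%) at 72 h, with medians of 0.03 and 0.02 on the log2 scale. DESeq2 called fewer of them, 68 lower and 126 higher at 48 h and 151 and 168 at 72 h. Genes with separate peaks had 60 lower (25.1%) and 15 higher (6.28%) at 72 h, with a median of −0.26. With library size alone they had 39 lower and 29 higher, and their medians were −0.04, −0.07 and −0.04 at 24, 48 and 72 h. Genes with neither peak had 5.2% lower and 12.4% higher at 48 h and 9.91% and 16.2% at 72 h. The share of all genes includes those with ZFP143 peaks, and no difference between the shares was tested. Scaling to library size alone raised the median log2 change of all genes from 0.0175 to 0.15 at 24 h, from 0.013 to 0.21 at 48 h and from 0.0159 to 0.23 at 72 h and moved the split of calls with it, to 40 lower with 72 higher at 24 h, 89 with 336 at 48 h and 175 with 440 at 72 h.

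**Figure D5:**
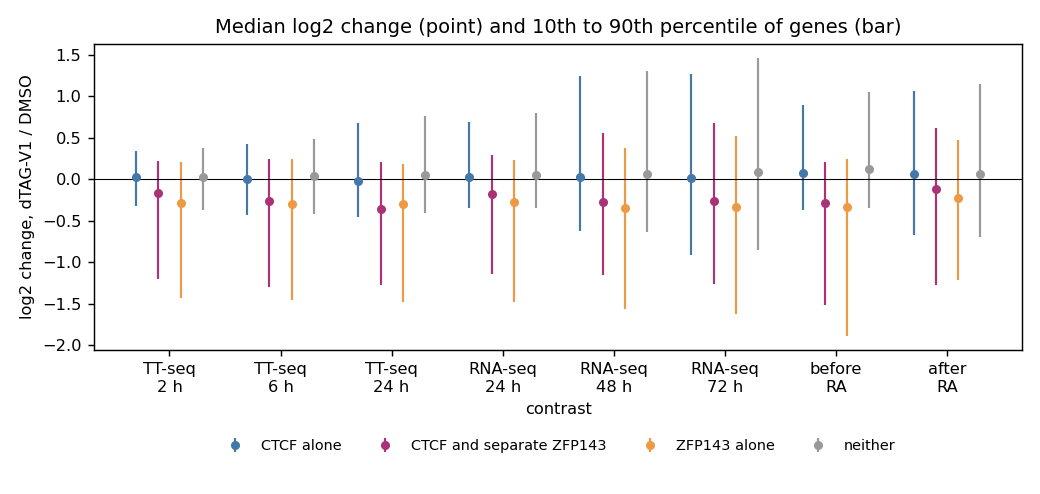
Median log2 change of dTAG-V1 over DMSO (points) with the range from the 10th to the 90th percentile of genes (bars) for 4 classes of genes in 8 contrasts. The medians of CTCF-alone genes run between −0.02 and 0.07, whereas those of genes with separate CTCF and ZFP143 peaks run between −0.35 and −0.11.

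The share of genes higher at 72 h was largest among genes of low count. Of CTCF-alone genes with a mean count under 100, 30.9% were higher at 72 h, and the share was 14.3% from 100 to 500, 6.72% from 500 to 2000 and 1.92% above that. Genes with neither peak gave 30.8%, 16.6%, 7.63% and 4.61%. The share of CTCF-alone genes lower at 72 h ran the other way, with 9.43%, 11.0%, 11.4% and 14.4% in the same order. The count filter bears on the lowest bin: 125 of its 456 genes did not exceed 10 counts in both DMSO libraries and passed through treated ones, and of the other 331 genes 17.8% were higher and 13% lower. Over all CTCF-alone genes with such DMSO counts, 196 of 1840 were higher at 72 h (10.7%). The median distance to a ZFP143 peak was 67389 bp for CTCF-alone genes lower at 72 h, 147572.5 bp for those higher and 91032.5 bp for those not called.

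Of the 2293 CTCF-alone genes tested in any table, 1522 were called in none of the 8 contrasts of dTAG-V1 with DMSO, and 771 were called at least once (33.6%), beside 29.3% of all 20139 tested genes. A total of 33 were lower at some time in TT-seq, of which 18 were lower in RNA-seq too, and 44 were higher at some time in TT-seq, of which 28 were higher in RNA-seq. These were 1.54% and 2.05% of the CTCF-alone genes tested in TT-seq, beside 4.58% and 2.25% of all genes, of which 467 of 819 were lower and 223 of 402 higher in RNA-seq too.

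Among the genes lower in RNA-seq, Crip1, which encodes a small LIM domain protein, had 48.9 and 49.96 CPM in DMSO and 17.5 and 16.5 CPM at 24 h (log2 −1.54, SE 0.09, adjusted p = 2.15e-10). Its TT-seq change at 24 h, −1.0, did not pass (adjusted p = 0.156). Sfn, the gene of the 14-3-3σ adaptor, had 38.1 and 43.3 against 15.0 and 13.7 CPM at 24 h (log2 −1.51, adjusted p = 1.22e-08), and Uqcrh, a subunit of respiratory complex III, had 153 and 159 against 64.2 and 67.9 CPM (log2 −1.24, adjusted p = 1.12e-10). The groups were apart for all 3 genes at 24 h, which was a condition for naming them, while Sfn and Uqcrh passed no test in TT-seq.

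Calcoco2, an autophagy receptor gene whose CTCF core is printed above, fell from 81.7 and 89.4 CPM to 7.49 and 6.89 CPM at 72 h (log2 −3.58, SE 0.10, adjusted p = 4.67e-21). Its TT-seq values at 24 h were 57.6 and 73.5 against 30.7 and 39.7 CPM (log2 −0.90, adjusted p = 0.0456), a call that was lost without any 1 library (log2 −1.09 to −0.69). Pou2f3, a POU transcription factor gene, went from 37.2 and 36.6 to 3.98 and 3.75 CPM at 72 h (log2 −3.26), and Tdrd12, a gene of the piRNA pathway, from 77.0 and 82.5 to 6.01 and 7.37 CPM (log2 −3.56). These genes were thus low in both libraries at the latest time. Of the genes with separate peaks, Itpr1, a calcium release channel, went from 61.5 and 67.1 to 2.96 and 3.75 CPM (log2 −4.23, adjusted p = 2.69e-20).

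Higher values at 72 h were led by genes that were almost silent in DMSO cells. Prph, a neuronal intermediate filament gene, had 1.10 and 0.927 CPM in DMSO and 93.98 and 98.1 CPM at 72 h (log2 6.57, SE 0.13, adjusted p = 5.24e-24). Steap1, a membrane metalloreductase gene, had 1.75 and 1.43 against 32.3 and 32.9 CPM (log2 4.37). Timp3, an inhibitor of metalloproteinases, had 2.02 and 0.855 against 30.4 and 27.8 CPM (log2 4.40), and Efnb2, an ephrin ligand, had 1.01 and 1.21 against 20.7 and 18.4 CPM (log2 4.10). The treated libraries of each gene lay above both DMSO libraries by a wide margin, though non-overlap was a condition for naming these genes. Efnb2 did not pass at any time in TT-seq, where its log2 change at 24 h was 0.76 (adjusted p = 0.221), and Prph and Timp3 were under the count filter there.

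Gene lists by known role are described by their counts. Of 18 CTCF and cohesin genes, 8 were in the set, among them Smc3 and Stag2, which encode subunits of the cohesin complex. Smc3 had 188 and 210 CPM in DMSO and 218 and 225 CPM at 2 h of TT-seq (log2 0.16, adjusted p = 0.654), and its RNA-seq values were 291 and 310 against 254 and 258 CPM at 72 h (log2 −0.23). Of the 8, of which 7 were tested in TT-seq and RNA-seq, only Patz1, a zinc finger gene with a separate ZFP143 peak, was called in a contrast of dTAG-V1 with DMSO, lower in TT-seq at 24 h (log2 −0.55, adjusted p = 0.0425), and it lost that call without any 1 library (log2 −0.71 to −0.41). At that time 2 of 10 genes of the list outside the set were lower, and 4.09% of all tested genes. Ctcf itself has a CTCF peak that overlaps ZFP143 and is no member. It passed no test (log2 −0.12 in TT-seq at 2 h, −0.46 in RNA-seq at 72 h).

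The clustered protocadherins, cell adhesion genes whose promoters are well-known CTCF targets, had 27 of 57 genes in the set. In RNA-seq 4 of 10 tested were higher at 48 h and 9 of 10 at 72 h, beside 10.5% and 13.7% of all genes. The median log2 change of the 10 at 72 h was 2.09. These counts say nothing of the other 17 members, and 6 of the 10 did not exceed 10 counts in both DMSO libraries and passed the filter through treated ones, which favours a call of higher. Of the 4 with over 10 counts in both DMSO libraries, 3 were higher at 72 h, and their median log2 change was 1.43. Of the protocadherins outside the set, 3 of 6 were higher at 48 h and 3 of 6 at 72 h. Pcdhga10 had 1.19 and 1.21 CPM in DMSO and 6.57 and 6.89 CPM at 72 h (log2 2.48, adjusted p = 5.5e-08), and Pcdhgb4, which had 7 counts in either DMSO library and passed the filter through treated ones, had 0.643 and 0.499 against 4.63 and 4.30 CPM (log2 2.96, adjusted p = 5.89e-07). The groups were apart, but the levels are low, and genes of a cluster overlap and share their last exons, so a read can belong to several of them and the values of single genes are uncertain. In TT-seq at 24 h the median log2 change of the 19 tested was 0.35, and in the RA table that of the 13 tested was 0.91 before and −0.01 after RA.

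Cytosolic ribosomal protein genes had 18 of 84 in the set. In TT-seq their median log2 change at 2 h was −0.25, and 5 were lower at 6 h and at 24 h, in RNA-seq 5 were lower at 72 h, and after RA 9 were lower with a median log2 change of −0.88. Of all tested genes, 2.83%, 4.09%, 12% and 7.36% were lower in these contrasts. The ribosomal genes outside the set gave 3 of 65, 16 and 15 lower at the 3 times of TT-seq, 24 of 66 at 72 h and 37 of 66 after RA. Rps15 had 867 and 816 CPM in DMSO after RA and 454 and 400 CPM with dTAG-V1 (log2 −0.98, adjusted p = 4.29e-05), while before RA it had 754 and 818 against 805 and 775 CPM.

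The other lists had few members. Of 6 pluripotency genes in the set, Klf2 and Sox2 were lower in RNA-seq at 72 h, where 4 of 14 outside the set and 12% of all tested genes were. Klf2 had 495 and 465 CPM in DMSO, 245 and 254 at 24 h and 177 and 177 at 72 h (log2 −1.44, SE 0.05, adjusted p = 5.06e-16), and Sox2 had 513 and 525 against 239 and 267 CPM at 72 h (log2 −1.03, adjusted p = 4.61e-10). Targets of the stress factor ATF4 had 4 members, of which 2 were higher in RNA-seq at 24 h and 3 at 48 h. Outside the set 6 and 9 of 18 were higher at these times, beside 2.32% and 10.5% of all tested genes. Cebpb rose from 1.29 and 1.71 to 11.8 and 9.03 CPM at 24 h (log2 2.77, adjusted p = 1.25e-07), and Trib3, a pseudokinase gene with a separate ZFP143 peak, from 85.6 and 83.2 to 181 and 187 CPM (log2 1.13, adjusted p = 1.24e-10). Mdm2, a p53 target and inhibitor with a separate ZFP143 peak, had 162 and 165 against 363 and 386 CPM at 48 h (log2 1.19, adjusted p = 4.23e-13). Numbered zinc finger genes had 36 of 391 in the set, and 1 of 35 tested was lower at 2 h against 34 of 321 outside it and 2.43% of all tested genes.

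In the RA table, the question was whether depletion acted alike before and after differentiation. Before RA, 14 CTCF-alone genes were lower (0.652%) and 52 higher (2.42%) of 2146, and 42 genes with separate peaks were lower (16.9%) and 2 higher of 249, in total 56 lower (2.34%) and 54 higher (2.25%) beside 3.66% and 2.74% of all tested genes. After RA, 124 CTCF-alone genes were lower (5.78%) and 218 higher (10.2%), and 43 genes with separate peaks were lower (17.3%) and 13 higher, in total 167 lower (6.97%) and 231 higher (9.65%) beside 7.36% and 9.1%. The CTCF-alone genes lower before RA numbered 15 and 7 without DMSO replicate 1 and 2, 9 and 6 without the first and second treated library, 6 with DESeq2 and 7 with library size alone. The count of higher genes before RA was 32 without DMSO replicate 1, 35 without DMSO replicate 2 and 30 without the second treated library. Scaling to library size alone raised the median log2 change of all genes from 0.06 to 0.20 before RA and from 0.0031 to 0.21 after it, and gave 46 lower and 88 higher before RA and 109 and 341 after it. Sums of cell type markers also moved with depletion. Before RA the 5 neural markers summed to 241 to 256 CPM in DMSO and 138 to 139.9 CPM with dTAG-V1, 6 of trophoblast to 40.6 to 46.4 against 27.0 to 29.02 CPM, 7 of primitive endoderm to 4.93 to 6.08 against 9.19 to 11.8 CPM, 5 of 2-cell-like cells to 2.41 to 4.09 against 7.38 to 7.41 CPM and 10 of stem cells to 7533 to 7666 against 6932 to 6963 CPM. After RA the 5 markers of 2-cell-like cells summed to 53.97 to 55.2 CPM in DMSO and 186 to 217 CPM with dTAG-V1, 5 neural markers to 108 to 124 against 50.98 to 53.45 CPM, 7 of primitive endoderm to 42.1 to 44.6 against 57.9 to 60.55 CPM, 5 of fibroblasts (2 of them at 0 in DMSO) to 6.54 to 10.3 against 25.9 to 26.2 CPM and 4 of mesoderm to 1.46 to 1.57 against 5.87 to 7.48 CPM. The stem cell sum, 1376 to 1963 against 1502 to 1817 CPM, overlapped, as did that of trophoblast markers, and the part of these shifts in the results was not tested. Under the scaling to library size the median of the genes with separate peaks after RA turned from −0.11 to 0.10.

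The difference between both contrasts was tested as an interaction (adjusted p under 0.05 and a log2 difference beyond 0.5). It was below 0 for 409 of 2395 genes (17.1%) and above 0 for 362 (15.1%), where 18% and 13.7% of all tested genes were called. Among genes with separate peaks, 22 were below (8.84%) and 66 above 0 (26.5%), with a median of 0.20, while CTCF-alone genes had 387 (18.0%) and 296 (13.8%). With DESeq2's size factors the CTCF-alone genes had 330 below and 341 above 0. The cells after RA had also been depleted for 48 h instead of 24 h and had changed medium, so time, medium and RA cannot be told apart.

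Genes with a ZFP143 peak and no CTCF peak had a similar split of the interaction, with 9.83% below and 27.7% above 0, and the difference between these classes was not tested. Among genes with separate peaks the count called lower was 42 before and 43 after RA. As examples, Dnajc18 had 34.0 and 30.2 against 2.03 and 2.31 CPM before (log2 −3.87) and 33.2 and 37.9 against 14.6 and 15.0 CPM after RA (log2 −1.26). Fbxo46 had 24.5 and 26.2 against 4.73 and 4.58 CPM before (log2 −2.44) and 12.9 and 13.03 against 10.0 and 11.0 CPM after RA, where it did not pass the test (log2 −0.30). The groups remained apart in both genes, with a smaller gap after RA.

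Some CTCF-alone genes differed in their response before and after RA. Fasn, the fatty acid synthase gene, had 1671 and 1853 CPM in DMSO after RA and 233 and 261 CPM with dTAG-V1 (log2 −2.83, adjusted p = 4.41e-15), and before RA its log2 change of −0.13 did not pass. Its interaction was −2.71 (adjusted p = 2.21e-12). Hoxc5, a homeobox gene, had 26.3 and 40.0 against 4.96 and 4.84 CPM after RA (log2 −2.74, adjusted p = 6e-10; interaction −2.70, adjusted p = 7.59e-05). Hsp90aa1 went the other way from its course in stem cells: it was lower in RNA-seq at 72 h (3207 and 3567 against 1781 and 1719 CPM, log2 −0.95) and higher after RA (1274 and 1045 against 2360 and 2066 CPM, log2 0.93), a call that was lost without DMSO replicate 2 after RA (log2 0.81 to 1.10 with 1 library left out). Klf4 and Tbx3, pluripotency genes, were higher with dTAG-V1 after RA: Tbx3 had 38.1 and 30.2 against 96.1 and 77.0 CPM (log2 1.33, adjusted p = 1.03e-06), and Klf4 had 37.5 and 17.5 against 80.7 and 67.3 CPM (log2 1.38, adjusted p = 0.000167). Klf4 was not called with DESeq2, and its DMSO libraries differed from each other by more than its treated ones.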

How the data were processed

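TT-seq, RNA-seq and RA libraries (24 in 3 tables) were deposited by the authors as counts of reads per gene, made with STAR on mm10 and GENCODE vM25, the TT-seq reads deduplicated and counted by strand with htseq-count. The deposited ZFP143 peak list gives fold over input (a ratio) and the CTCF list positions only, called on DMSO and dTAG-V1 cells together. All columns of the count tables were used (0 left out). Hi-C, 4C and ATAC-seq data were not used here.

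Peaks were joined to protein-coding transcript starts of GENCODE vM21 on GRCm38, to which 55141 of 55401 gene IDs matched. Counts were fitted with edgeR 4.0.16 (R 4.3.3, limma 3.58.1), TMM scaling and 1 fit per table over its 8 libraries, after tests on simulated data. DMSO libraries are shared by the contrasts of a table. Alternatives were DESeq2 1.42.0, other scalings, no count filter, a replicate block, each library left out, and other distances and mismatches. RNA-seq counts are not stated to use strand, so antisense partners cannot be told apart there.

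Same-numbered libraries deviated together in every pair of TT-seq groups (r = 0.2143 to 0.6674 across genes), so the numbers may pair the libraries there. This comes from the data and not from the labels. The TT-seq counts are from the fit without the block unless the block is named.

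Named genes were, per contrast, called genes with a mean count of at least 100 and non-overlapping groups: the 4 of either direction with the greatest change among CTCF-alone genes, the 3 of either direction among genes with separate peaks, plus called genes of the lists, the 5 highest in level, Zfp143, Ctcf, Myc and cohesin genes. Some genes that met this rule are not reported here. Thtpa, Htra2, Aup1, Vti1b, Dhx58 and Pabpc4 were added after their values were seen. Members and lists were chosen with earlier results of these data known.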

Additional observations from a re-analysis of the deposited data

Results flagged for a closer look

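Genes whose response to depletion differed between the cells before RA and the cells after it are given by their interaction, the log2 change after RA less that before RA (edgeR's quasi-likelihood test, adjusted p under 0.05 for each). After RA the cells had also been depleted for longer and had changed medium, so RA, time and medium cannot be told apart.

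Values below 0 were found for Fbxo32 (−4.11), Gdpd5 (−3.11), Enpp3 (−3.07), Rps29 (−1.35), Slc7a6 (−1.04) and Carm1 (−1.04). Fbxo32, a ubiquitin ligase gene, had 19.2 and 41.1 against 3.89 and 3.77 CPM after RA. Enpp3 had 4.09 and 3.90 against 13.04 and 11.4 CPM before RA and 29.5 and 31.9 against 11.7 and 10.6 CPM after it, so its direction turned. Gdpd5 had 66.2 and 63.7 against 24.2 and 22.4 CPM after RA. The genes given next, Rps29, Carm1 and Slc7a6, each have a separate ZFP143 peak. Rps29, a ribosomal protein gene, had 175 and 168 against 39.8 and 39.5 CPM after RA, Carm1, an arginine methyltransferase gene, 180 and 184 against 66.6 and 71.7 CPM, and Slc7a6, an amino acid transporter gene, 112 and 117 against 55.4 and 59.8 CPM.

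Values above 0 were found for Snai1 (3.54), Tfrc (3.05), Itgal (3.04), Pafah2 (2.92), Sh3tc1 (2.86), Dnajc18 (2.61) and Ripk3 (2.45). Tfrc, the transferrin receptor gene, had 491 and 402 against 486 and 450 CPM before RA, where the groups overlapped, and 62.5 and 45.9 against 482 and 464 CPM after RA (log2 3.11, adjusted p = 5.95e-14). Snai1, which encodes a repressor of epithelial genes, had 4.51 and 3.67 against 1.61 and 0.997 CPM before RA and 4.24 and 3.75 against 12.3 and 16.9 CPM after it. Its call before RA was lost without DMSO replicate 1 or the second treated library (log2 −2.03 to −1.34). Pafah2, which has a separate ZFP143 peak, had 41.9 and 41.4 against 7.58 and 9.33 CPM before RA and 8.88 and 9.07 against 14.4 and 13.4 CPM after it (log2 0.63, which did not pass). Itgal, an integrin gene that also has a separate ZFP143 peak, had 8.71 and 11.0 against 1.04 and 1.83 CPM before RA and 9.80 and 8.39 against 11.9 and 10.9 CPM after it. Sh3tc1 had 7.24 and 4.50 against 27.7 and 27.6 CPM after RA, and Ripk3, a kinase gene of cell death, 7.82 and 7.98 against 34.4 and 37.1 CPM.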

How the results depend on the processing

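All shares here are percent of the tested genes with these CTCF peaks. DESeq2 changed the shares of higher genes to 0.251, 0.668 and 2.59 in TT-seq at 2, 6 and 24 h, to 0.726, 5.99 and 7.99 in RNA-seq at 24, 48 and 72 h and to 0.960 and 5.43 before and after RA, and the share lower at 48 h to 4.67. Without the count filter TT-seq gave 2.16 lower with 0.576 higher at 2 h, 3.53 with 1.15 at 6 h and 5.12 higher at 24 h. Library size alone gave 3.27 higher with a median of 0.148 in RNA-seq at 24 h, 4.04 lower with a median of 0.215 at 48 h, 7.94 lower and 20 higher with a median of 0.215 at 72 h, 3.67 higher with a median of 0.181 before RA, and 4.55 lower with a median of 0.257 after RA. Without the genes that have a ZFP143 peak within 2000 bp of a start, the share lower was 0.0466 at 2 h (0 higher), 0.419 at 6 h and 1.49 at 24 h of TT-seq, 0.865 in RNA-seq at 24 h and 0.652 before RA. With 0 or 2 mismatches allowed, 13.1 and 81.4 percent of peaks held the CTCF core. The cause of these shifts was not tested.

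With the replicate block, TT-seq gave 2.42 lower with 0.334 higher at 2 h, 4.30 with 1.50 at 6 h and 6.76 with 5.43 at 24 h. All 434 calls of named genes were kept with the block, and in RNA-seq and the RA table, where same-numbered libraries did not deviate together in every pair (r from −0.05584 to 0.05749 and from −0.1748 to 0.1919), it moved no share by over 1.5 times.

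With 1 library left out, the shares ran over 0.21 to 0.755 lower and 0.0 to 0.126 higher at 2 h, 0.461 to 1.13 and 0.0 to 0.168 at 6 h, 1.34 to 2.39 and 0.294 to 0.965 at 24 h of TT-seq, 1.28 to 1.82 higher in RNA-seq at 24 h and 1.26 to 1.68 higher before RA. The lone library left in a group is assumed to vary like the others. DESeq2's size factors and the 500 bp and 2000 bp limits kept each of 27 values (shares within 1.5 times, medians within 0.1), while with DESeq2's size factors the interaction turned from 17.1 below and 15.1 above 0 to 14.6 and 17.4, and its median from −0.022 to 0.034. Of 434 calls of named genes, 70 were lost with DESeq2, 36 with library size alone and 9 each with DESeq2's size factors and without the filter. The spread of TT-seq and 2 libraries per group limit what could be called, so genes not called are not shown to be unaffected.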

Other observations

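The lists of germ layer and body patterning genes had a few members each. Of 39 Hox genes, 6 were in the set (15.4%) and both of the 2 tested were higher at 72 h, against 7 of 12 outside the set and 13.7% of all tested genes. The filter favours such calls, since 1 of the 2 passed it only through treated libraries. Hoxa7, a posterior patterning gene, had 0.367 and 0.428 CPM in DMSO and 3.61 and 2.87 CPM at 72 h (log2 2.96, adjusted p = 2.49e-06, edgeR), with 4 and 6 counts in DMSO. Of the 2 neural genes in the set, Nes, an intermediate filament gene, was lower at 48 h (98.3 and 102 against 43.9 and 43.3 CPM, log2 −1.20, adjusted p = 2.15e-10), while Prph was higher. Pdgfra, a growth factor receptor gene of primitive endoderm, had 0.459 and 0.499 against 2.41 and 2.18 CPM at 72 h (log2 2.22, adjusted p = 0.000314), and the collagen gene Col1a1 had 0.184 and 0.214 against 1.92 and 1.78 CPM at 48 h (log2 3.14, adjusted p = 0.000132). Their DMSO counts, 5 and 7 for Pdgfra and 2 and 3 for Col1a1, are under the filter, which both passed through treated libraries. These genes stayed at a few CPM, apart from Nes and Prph.

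Of the 10 nuclear genes for OXPHOS subunits in the set, 2 were lower at 72 h (18 of 72 outside the set, 12% of all tested genes), and of the 11 mitochondrial ribosome genes 1 was (8 of 65 outside it). Of the 10 tRNA synthetase genes in the set, Yars2, which has a separate ZFP143 peak, was lower in TT-seq at 2 h (27.8 and 40.8 against 12.2 and 16.1 CPM, log2 −1.28, adjusted p = 0.0201, edgeR), where 1 of 27 outside the set and 2.43% of all tested genes were lower. The Yars2 call was lost in 3 of the 4 fits with 1 library left out (log2 −1.53 to −0.95). Pabpc4, which encodes a poly(A)-binding protein and was chosen after its values were seen, had 205 and 192 against 86.8 and 91.7 CPM in RNA-seq at 72 h (log2 −1.15, adjusted p = 1.35e-11) and 171 and 181 against 57.5 and 55.9 CPM after RA (log2 −1.63). Retinoic acid response genes, nucleoporins, replication-dependent histones and 2-cell-like genes had no member.

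Car6, a secreted carbonic anhydrase gene and a CTCF-alone gene, had 1.41 and 1.09 against 20.02 and 22.2 CPM after RA (log2 4.04, adjusted p = 5.8e-12).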
